A study of Mus musculus with 16 samples.

Results

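A set of 10 genes that mark the epithelium of the bile ducts, Epcam, Cdh1, Cldn7, Krt19, Krt7, Krt23, Sox9, Spp1, Cftr and Tmc5, were followed through 16 mouse liver RNA-seq libraries. They were chosen by name, with earlier results of these libraries known, and are 10 of 55357 genes in the deposited count table, each matched to its row by Ensembl identifier. The libraries fall into 4 groups of 4, all from untreated mice: AUG, whose genotype label is mTERC CUG/AUG; AUG_WT, the wild type of that line; del7, labelled mTERC 29_35del, which lacks 7 nucleotides of the telomerase RNA gene at positions 29 to 35; and del7_WT, the wild type of that line. The labels give no age, sex or strain, do not spell out what CUG/AUG stands for, and do not state that the replicates were separate animals, so the spread between replicates may be partly technical.

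Bile ducts are lined by cholangiocytes, epithelial cells that carry bile out of the liver and modify it by moving chloride, bicarbonate and water. They are a small minority of liver cells and develop from the same progenitors as hepatocytes under Notch signalling and SOX9. The keratins KRT19 and KRT7 and EPCAM set them apart from hepatocytes. After injury, duct-like cells can expand around the portal veins in what is called a ductular reaction. Not all 10 genes are limited to ducts: CDH1 (E-cadherin) is also on hepatocytes near the portal vein, and SPP1 (osteopontin) is also made by activated macrophages. In whole-tissue RNA, fewer cells of a type and less RNA per cell cannot be told apart.

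Gene counts per library ran from 7714058 to 14629022. AUG_WT replicates 1 and 2 stood apart over all tested genes. On principal component 1 (34.5% of the variance), AUG_WT replicate 1 lay at 126.1 and none of the others above 10.7, and the next component (12.4% of the variance) set AUG_WT replicate 2 apart, at 53.0. AUG_WT replicate 1 had a summed level of 68612 CPM over 12 hepatocyte genes, among them Alb. This sum was 202013 CPM in AUG_WT replicate 2 and 134031 to 167552 CPM in the remaining libraries. Over 14 cell cycle genes AUG_WT replicate 1 summed to 473 CPM, against at most 31.0 in the other 15 libraries. CPM are counts scaled to a common library size, with library sizes adjusted by the trimmed mean of M-values (TMM). Comparisons that use AUG_WT are given with and without these libraries.

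Most of the 10 genes were rare transcripts. Divided by exon length, the median level over 16 libraries was highest for Spp1 at 14.9 CPM per kb, followed by Cdh1 at 4.32, Sox9 at 1.36, Krt23 at 0.854, Epcam at 0.615, Krt19 at 0.479, Cldn7 at 0.173, Krt7 at 0.102, Cftr at 0.0257 and Tmc5 at 0.0189 CPM per kb. The range of a gene over libraries often spanned its neighbours in this order: Epcam ran from 0.130 to 1.21, Krt19 from 0.0861 to 1.30 and Krt23 from 0.114 to 2.40 CPM per kb, so the ranges of these 3 overlapped. Cldn7 and Cftr, with 66 and 46 reads in all 16 libraries, did not reach the count filter, and 8 of 10 genes were tested. Epcam had 239 reads in all and between 3 and 38 in a library, so counting error alone is large for the rare genes.

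**Figure D1:**
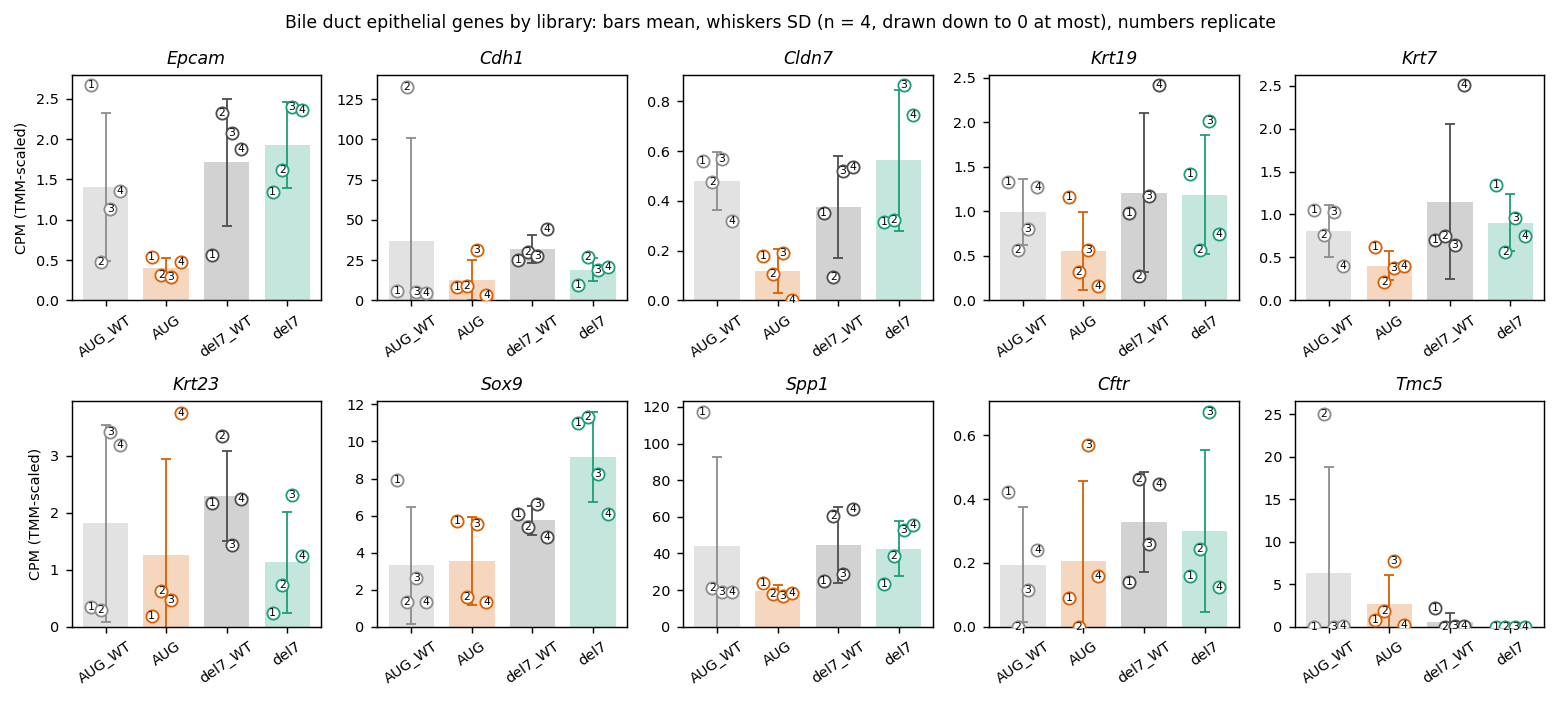
Level of each bile duct gene (vertical axes, TMM-scaled CPM, a separate scale for each gene) in the 4 groups; bars are means, whiskers 1 SD over 4 libraries, and numbered circles single replicates. Single circles stand far above their group for Spp1 in AUG_WT (replicate 1, 117 CPM), Cdh1 in AUG_WT (replicate 2, 132 CPM), Krt23 in AUG (replicate 4, 3.75 CPM) and Krt7 in del7_WT (replicate 4, 2.50 CPM).

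Epcam encodes the epithelial cell adhesion molecule, which in adult liver is found on duct cells and not on most hepatocytes. In AUG livers it was measured at 0.533, 0.316, 0.285 and 0.479 CPM in replicates 1 to 4, and in AUG_WT at 2.67, 0.474, 1.14 and 1.36 CPM. All 4 AUG libraries were low and close together, and AUG_WT replicate 2 lay among them, so the groups overlapped. In del7 it was measured at 1.34, 1.61, 2.40 and 2.36 CPM, and in del7_WT at 0.560, 2.32, 2.08 and 1.88 CPM. The mean was 0.403 ± 0.121 CPM in AUG, 1.41 ± 0.918 in AUG_WT, 1.93 ± 0.534 in del7 and 1.71 ± 0.787 in del7_WT (SD, n = 4). AUG_WT replicate 1 held 47.3% of the AUG_WT sum, and without it the mean of that group was 0.989 CPM. The AUG mean, from 3 to 6 Epcam reads a library, was the lowest of the 4 with or without that library.

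Cdh1 encodes E-cadherin, the cadherin of epithelial adherens junctions. Its AUG_WT libraries were at 6.03, 132, 5.34 and 4.79 CPM, so the group mean of 37.1 CPM rested on replicate 2, which held 89.1% of the sum; without it the mean was 5.39 CPM. AUG libraries were at 8.18, 8.63, 31.0 and 3.27 CPM, with 60.7% of the sum in replicate 3. Both the mutant and the wild-type group of the AUG line thus had 1 library far above 3 low ones. The del7_WT libraries were more even, at 25.2, 30.2, 27.7 and 44.5 CPM, and the del7 libraries lay at 9.48, 26.6, 18.7 and 20.8 CPM. In all, 6 of the 8 libraries of the AUG line, mutant and wild type together, were below the lowest of the 8 del7-line libraries, and the exceptions were AUG_WT replicate 2 and AUG replicate 3.

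Cldn7 encodes claudin 7, a tight junction protein of many epithelia. Its reads numbered 8, 5, 5 and 4 in AUG_WT, 2, 1, 2 and 0 in AUG, 5, 1, 4 and 6 in del7_WT, and 4, 4, 9 and 6 in del7. The AUG group held the fewest reads. On the CPM scale its libraries, at most at 0.190 CPM, lay below all AUG_WT and all del7 libraries. The lowest AUG_WT library was at 0.319 CPM. Of all tested genes, 1.2% were lower without overlap in AUG against AUG_WT and 2.63% in AUG against del7. The Cldn7 counts were too low for the test, and 22 reads fell on the opposite strand of the gene, 25% of the reads on either strand.

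Krt19 encodes the keratin most used to mark mouse cholangiocytes. Levels were 1.33, 0.569, 0.796 and 1.28 CPM in AUG_WT, 1.16, 0.316, 0.571 and 0.160 in AUG, 0.981, 0.279, 1.17 and 2.42 in del7_WT, and 1.42, 0.565, 2.02 and 0.747 in del7. Every group overlapped every other. AUG replicate 1 held 52.5% of the AUG sum, and del7_WT replicate 4 held 49.9% of the del7_WT sum. Krt7, a second duct keratin that often pairs with Krt19, was at 1.05, 0.758, 1.02 and 0.399 CPM in AUG_WT, 0.622, 0.210, 0.381 and 0.399 in AUG, 0.701, 0.743, 0.649 and 2.50 in del7_WT, and 1.34, 0.565, 0.961 and 0.747 in del7. The same del7_WT replicate 4 held 54.5% of the Krt7 sum of its group, and without it the group mean fell from 1.15 to 0.698 CPM, below that of del7.

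Krt23 encodes a type I keratin. It split the libraries in a way the other keratins did not: AUG_WT replicates 1 and 2 were at 0.351 and 0.284 CPM, and replicates 3 and 4 at 3.41 and 3.19. AUG libraries were at 0.178, 0.631, 0.476 and 3.75 CPM, so replicate 4 held 74.5% of the sum and the mean without it was 0.428 CPM in place of 1.26. Levels were 2.17, 3.35, 1.43 and 2.24 CPM in del7_WT and 0.237, 0.727, 2.31 and 1.24 in del7. In both lines some mutant and wild-type libraries overlapped.

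Sox9 encodes the transcription factor that marks duct cells and the duct plate of the developing liver. Levels were 7.93, 1.33, 2.61 and 1.36 CPM in AUG_WT and 5.69, 1.58, 5.52 and 1.36 in AUG. Each of these groups contained both low and high libraries. The del7_WT libraries, at 6.09, 5.39, 6.62 and 4.83 CPM, and the del7 libraries, at 10.98, 11.3, 8.26 and 6.10 CPM, did not go below 4.83 CPM. AUG_WT replicate 1 held 59.9% of its group's sum, and without it the AUG_WT mean was 1.77 in place of 3.31 CPM.

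Spp1 encodes osteopontin, a secreted phosphoprotein of bile duct cells and of macrophages, and had the most reads of the 10 genes. AUG_WT libraries were at 117, 20.9, 18.8 and 19.1 CPM. Replicate 1 was 5.99 times the mean of the other three and held 66.6% of the sum, and without it the mean fell from 43.96 to 19.6 CPM. AUG libraries were at 24.01, 17.8, 16.7 and 18.6 CPM, in the range of those 3 wild types. The del7-line libraries were at 25.01, 60.3, 28.7 and 64.1 CPM in del7_WT and at 23.3, 38.3, 53.0 and 55.5 CPM in del7. Apart from AUG_WT replicate 1, the AUG-line libraries did not exceed 24.01 CPM, and 7 of the 8 del7-line libraries were above that level.

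Cftr encodes the chloride channel of the apical membrane through which duct cells drive bicarbonate secretion. It had 6, 0, 1 and 3 reads in AUG_WT, 1, 0, 6 and 2 in AUG, 2, 5, 2 and 5 in del7_WT, and 2, 3, 7 and 1 in del7. At this depth no difference between groups was detectable.

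Tmc5 encodes a member of the transmembrane channel-like family. Its reads numbered 0, 264, 0 and 1 in AUG_WT, 9, 18, 81 and 3 in AUG, 31, 0, 1 and 1 in del7_WT, and 0 in all 4 del7 libraries. AUG_WT replicate 2 held 99.7% of its group's sum, AUG replicate 3 held 72.4%, and del7_WT replicate 1 held 90.8%. The del7 zeros allow a level of up to 0.069 CPM, the value of 3 reads over the 4 libraries. Against that floor, Tmc5 was at least 10.9-fold lower in del7 than in del7_WT and at least 36.7-fold higher in AUG than in del7. These bounds cover counting error of the del7 zeros only, with the del7_WT and AUG reads taken as counted. Of the 33 del7_WT reads, 31 were in replicate 1, and the 2 that remain without it are under the floor and give no bound. Without AUG replicate 3, 30 AUG reads remain and the bound against del7 is 13.1-fold. In AUG_WT replicate 2 and AUG replicate 3, the libraries highest in Tmc5, Cdh1 was highest of its group too. In del7_WT replicate 1, which was highest of its group in Tmc5, Cdh1 was the lowest of its group, at 25.2 CPM. Spearman's rho of Cdh1 with Tmc5 was 0.276 over 16 libraries and 0.053 without AUG_WT replicates 1 and 2.

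**Figure D2:**
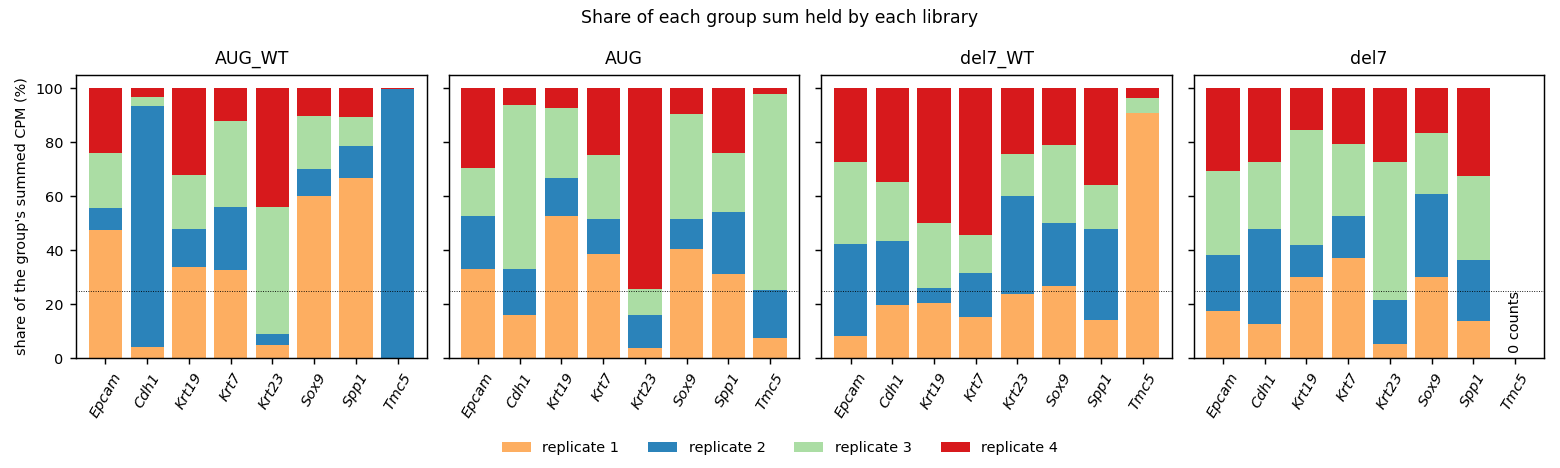
Share of each group's summed CPM (vertical axis, %) held by each replicate (colours) for the 8 tested genes, 1 panel for each group; the dotted line at 25% marks the end of the first replicate under an even split, and Tmc5 had 0 counts in del7. Replicate 2 fills nearly all of Cdh1 (89.1%) and Tmc5 (99.7%) in AUG_WT, and replicate 1 holds most of Spp1 (66.6%) and Sox9 (59.9%) there.

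AUG_WT replicate 1 was the highest library of its group for 6 of the 10 genes, Epcam, Krt19, Krt7, Sox9, Spp1 and Cftr. It was also the highest of its group for 40.3% of all 14421 tested genes, and for 11.6% of them its gap to the next library, divided by the range of the group, passed Dixon's 95% limit for 4 samples. AUG replicate 1 was the highest of the AUG group for Epcam, Krt19, Krt7, Sox9 and Spp1, 5 of 10, where it was highest for 26.5% of all tested genes. AUG replicate 3 was highest for Cldn7, Cftr, Cdh1 and Tmc5. Replicate 4 of del7_WT was highest for Krt19, Krt7, Spp1, Cldn7 and Cdh1, and replicate 3 of del7 for Epcam, Krt19, Krt23, Cldn7 and Cftr. Over all tested genes, AUG replicate 3 was highest of its group for 21.7%, del7_WT replicate 4 for 25.5% and del7 replicate 3 for 24.2%.

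Markers of other tissues moved with some of these libraries. AUG replicate 1 held reads of 11 of 12 pancreatic acinar genes, 554 reads in all or 49.3 CPM, where the other 15 libraries summed to between 3.23 and 7.90 CPM; Amy2a1 was at 0 in every library. The pancreas also has ducts that express keratins and Sox9, and the part of this signal in the AUG replicate 1 values was not tested. The mesothelium covers the liver surface and also makes Krt19 and Krt7, and its 8 listed genes other than Krt19 summed to 44.4 CPM in del7_WT replicate 4, against 1.26 to 26.9 CPM in the other libraries; their part in its keratin levels was not tested. In AUG_WT replicate 1, the 14 macrophage genes summed to 1186 CPM against 272 to 803 CPM elsewhere, 12 B and plasma cell genes to 1747 CPM against 53.1 to 370 CPM, and 13 T and NK cell genes to 164 CPM against 7.24 to 31.1 CPM. Their part in its Spp1 level was not tested. Of 10 gut epithelial genes, Cdx2 was at 0 in all 16 libraries, and the sum of 22.6 to 68.9 CPM was mostly Fabp2 and Lgals4. AUG_WT replicate 1 stood apart in Cdh17, with 67 reads or 4.70 CPM against at most 3 reads in any other library, and was the one library with reads of Reg3g (3) and Guca2a (1); the part of this signal in its duct gene levels was not tested.

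The first comparison asked how AUG livers differed from their wild types. The members were chosen with this comparison known, so its values are a description; counts of calls are printed beside the share over all genes, and nothing is read from them. Epcam was lower in AUG, with a log2 fold change of -1.79 (SE 0.53), and the log2 fold changes were -1.54 (SE 0.94) for Cdh1, -1.19 (SE 0.55) for Spp1, -0.96 (SE 0.53) for Krt7, -0.86 (SE 0.64) for Krt19, -0.47 (SE 0.88) for Krt23 and 0.08 (SE 0.55) for Sox9. With edgeR's quasi-likelihood test and a Benjamini-Hochberg threshold of 0.05 over all genes, 0 of 8 were called (0.0277% of all tested genes). DESeq2 also called 0 (0.0624% of all genes), and so did limma voom (0.0416%). In edgeR, 2 of the 8 had an unadjusted p under 0.05 (8.81% of all genes). Of the 8, 7 were lower in AUG, as were 56.2% of all genes; 6 were lower without AUG_WT replicate 1, 6 without replicate 2 and 4 without both. None of the 8 separated the 2 groups completely (1.2% of all genes lower and 0.853% higher without overlap), and their median was -1.08 against -0.04 for all genes.

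Leaving out single libraries moved several of these values. Without AUG_WT replicate 1, the log2 fold change of Spp1 went from -1.19 to 0.00058 (SE 0.34), that of Sox9 from 0.08 to 1.04 (SE 0.48), and that of Epcam to -1.24 (SE 0.53). Without AUG_WT replicate 2, Cdh1 turned from -1.54 to 1.25 (SE 0.57) and Tmc5 from -1.24 (SE 1.64) to 6.08 (SE 1.93). Krt23 moved both ways: it went from -0.47 to -2.05 without AUG replicate 4, and to 0.01 without AUG_WT replicate 3 and 0.0077 without AUG_WT replicate 4. With AUG_WT replicates 1 and 2 both left out, an alternative chosen after seeing the data, the median of the 8 genes was -0.33, and Epcam was at -1.57, Spp1 at 0.05, Sox9 at 0.89 and Cdh1 at 1.34. Epcam, Krt19 and Krt7 stayed lower in AUG when any 1 of the 8 libraries was left out, with ranges of -2.05 to -1.24, -1.52 to -0.54 and -1.23 to -0.75.

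**Figure D3:**
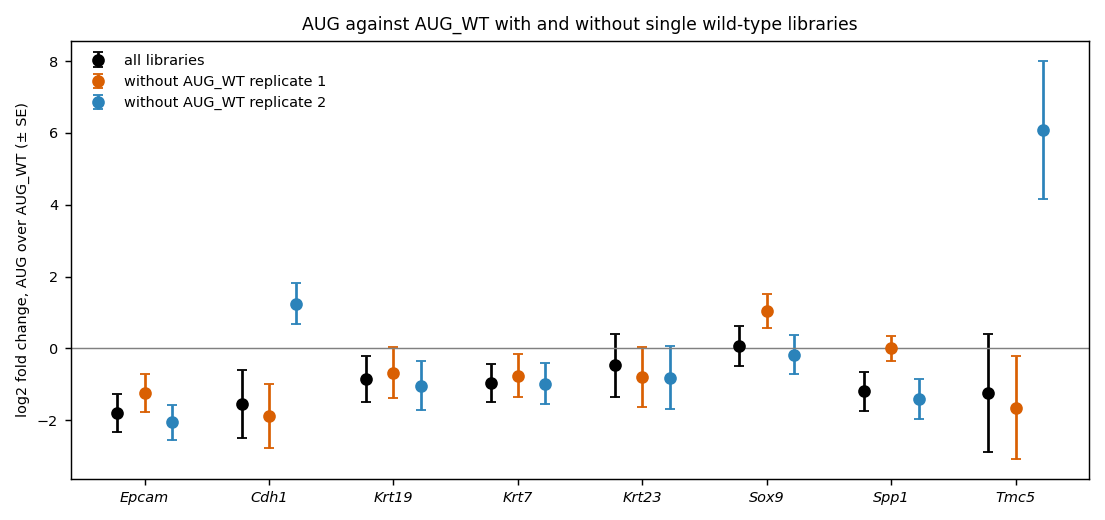
Log2 fold change of AUG over AUG_WT (vertical axis, points, with whiskers of 1 SE) for the 8 tested genes with all libraries and without AUG_WT replicate 1 or replicate 2. Spp1 moves from -1.19 to 0.00058 without replicate 1, and Cdh1 from -1.54 to 1.25 without replicate 2, while Epcam stays below 0 in all 3 fits.

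The second comparison set del7 against del7_WT, also with earlier results known, so that it too is a description. Sox9 had a log2 fold change of 0.68 (SE 0.53) and Epcam of 0.18 (SE 0.46). The values were -0.02 for Krt19, -0.07 for Spp1, -0.34 for Krt7, -0.76 (SE 0.92) for Cdh1 and -1.05 (SE 0.89) for Krt23. No tested gene was called by edgeR, in this list or anywhere (0% of all genes), and 0 of the 8 had an unadjusted p under 0.05 (1.92% of all genes). Of the 8, 6 were lower in del7, as were 49.9% of all genes. Limma voom called 0 (0% of all genes). DESeq2 called 1 (0.00693% of all genes), Tmc5, whose del7_WT reads lie almost wholly in replicate 1. Without del7_WT replicate 4 the log2 fold change of Krt7 went from -0.34 to 0.37 and the median of the 8 genes from -0.21 to 0.20. None of the 8 separated del7 from del7_WT completely (1.61% of all genes lower and 2.41% higher without overlap).

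The difference between the mutants' effects, AUG against AUG_WT less del7 against del7_WT, is built from the same comparisons and is likewise a description. For Epcam it was -1.97 (SE 0.70) on the log2 scale, -1.42 (SE 0.66) without AUG_WT replicate 1, -2.23 (SE 0.63) without replicate 2 and -1.75 (SE 0.65) without both. It was below 0 for 6 of the 8 genes and for 54.9% of all genes, and for 4 of the 8 without AUG_WT replicate 1, 5 without replicate 2 and 4 without both. By edgeR 0 of 8 were called (0.00693% of all genes), and 1 had an unadjusted p under 0.05 (5.21% of all genes). Limma voom called 0 (0.0139% of all genes) and DESeq2 called 1, Tmc5 (0.0416%).

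Levels were also compared between the AUG line and the del7 line. The wild types, AUG_WT against del7_WT, gave 0 of 8 calls in edgeR (0.0347% of all genes). At an unadjusted p under 0.05 in edgeR, 0 of 8 passed (11.8% of all genes). DESeq2 called 0 (0.485% of all genes), and so did limma voom (0.0347%). Of the 8, 6 were lower in AUG_WT, as were 44.6% of all genes, and 0 of them without overlap (1.53% of all genes lower, 2% higher). The number lower was 6 without AUG_WT replicate 1, 6 without replicate 2 and 7 without both. The log2 fold changes were -0.77 (SE 0.54) for Sox9, -0.23 (SE 0.47) for Epcam and -0.01 for Spp1, but without AUG_WT replicate 1 they were -1.74 (SE 0.47), -0.76 (SE 0.46) and -1.21 (SE 0.34). Cdh1 was at 0.22 (SE 0.91) with all libraries and at -2.58 (SE 0.59) without AUG_WT replicate 2. Tmc5 was at 3.22 (SE 1.83) with all libraries, but 264 of the 265 AUG_WT reads were in replicate 2. Without it the AUG_WT mean of Tmc5 was 0.027 CPM, below the 0.598 CPM of del7_WT. In del7_WT, 31 of the 33 reads were in replicate 1. Without del7_WT replicate 4, 5 of the 8 were higher in AUG_WT and 3 lower. None of these was called by edgeR.

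AUG against del7 compares no AUG_WT library, but those libraries enter the shared estimate of spread behind its SEs and calls. Fitted without AUG_WT replicates 1 and 2, edgeR called 0.216% of all genes in place of 0.0416%. In AUG against del7 the line and the mutation cannot be told apart. The AUG and del7 libraries are those of the comparisons above, so the values are a description here too. Epcam was lower in AUG with a log2 fold change of -2.20 (SE 0.52), a 4.602-fold lower level, and all 4 AUG libraries lay below all 4 del7 libraries. Sox9, at -1.38 (SE 0.54), also did not overlap, the highest AUG library at 5.69 CPM and the lowest del7 library at 6.10 CPM. The log2 fold changes were -1.14 (SE 0.55) for Spp1, -1.14 for Krt7, -1.10 for Krt19, -0.57 for Cdh1 and 0.22 for Krt23. In edgeR 0 of 8 were called (0.0416% of all genes), and 4 had an unadjusted p under 0.05 (4.28% of all genes). DESeq2 called 2, Epcam and Tmc5 (0.347% of all genes), and limma voom 0 (0.0624%). Of the 8, 6 were lower in AUG, as were 50.3% of all genes. The 2 non-overlapping genes that were lower stand beside 2.63% of all genes, and Tmc5, higher in every AUG library, beside 2.45%. The median of the 8 was -1.12, also with Tmc5 at its bound, against -0.0018 for all genes.

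**Figure D4:**
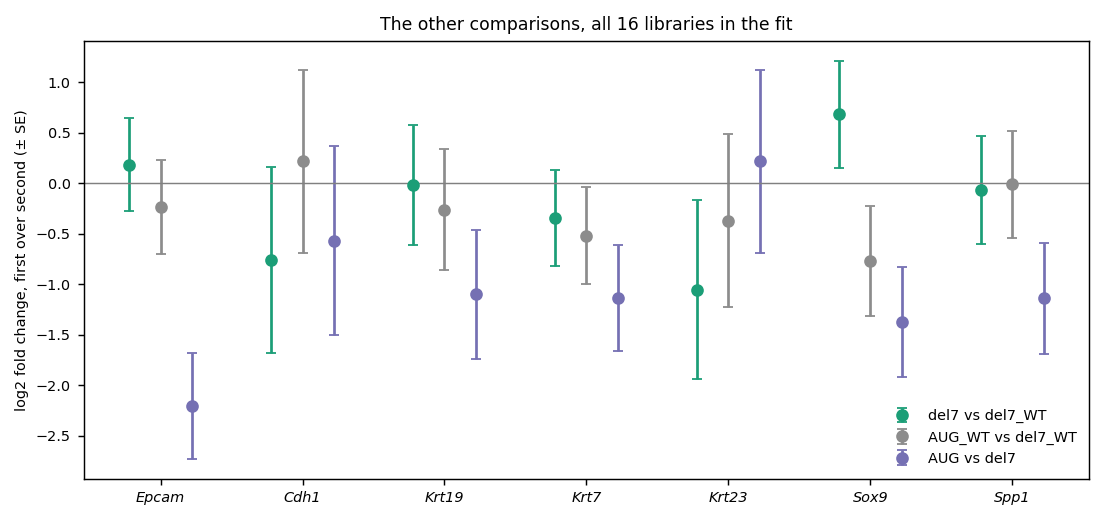
Log2 fold change (vertical axis, points, with whiskers of 1 SE) of 7 bile duct genes in del7 over del7_WT, AUG_WT over del7_WT and AUG over del7, all 16 libraries in the fit; Tmc5 is left out because del7 had 0 counts. Epcam at -2.20 and Sox9 at -1.38 in AUG over del7 lie farthest below 0.

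Across libraries the genes did not move as 1 block. Over 16 libraries, Spearman's rho of the 28 pairs of tested genes had a median of 0.132. Epcam and Spp1 went together most closely, with rho = 0.874 (n = 16) and 0.859 in the 14 libraries other than AUG_WT replicates 1 and 2, and Krt19 went with Krt7 at 0.629 and 0.604. Tmc5 ran against Epcam at -0.786 and -0.741. For Cdh1 and Epcam rho was 0 in all 16 and 0.319 without those 2, and Krt23 had no pair above 0.28 in either set. These correlations describe libraries that share groups and lines, and the rare genes carry counting error.

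**Figure D5:**
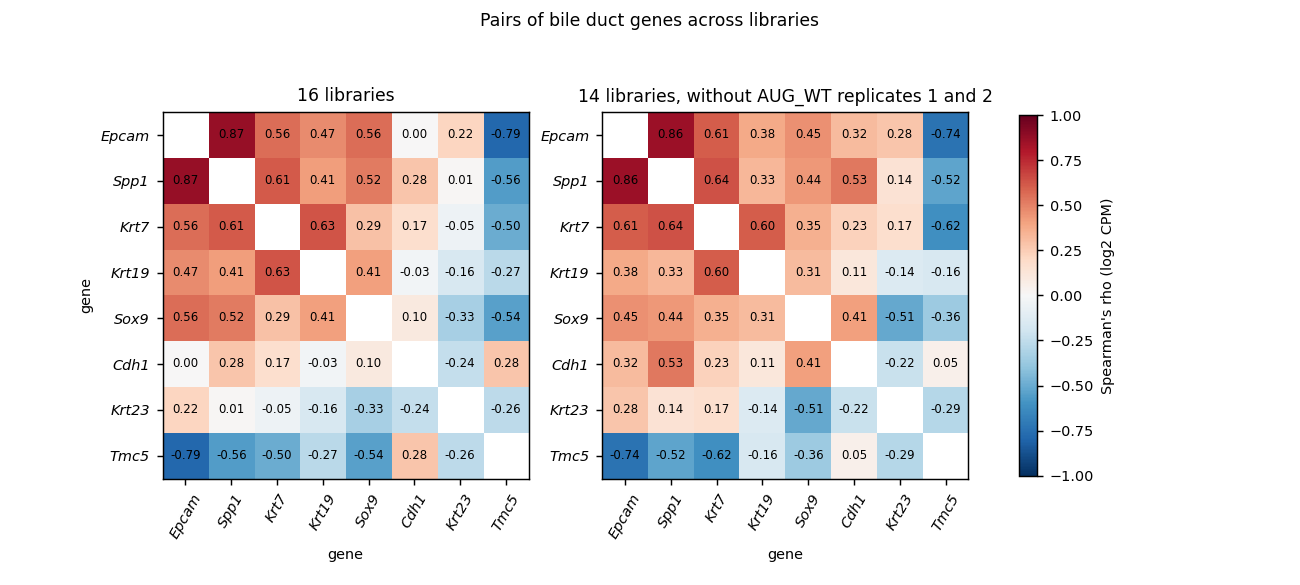
Spearman's rho of log2 CPM for each pair of the 8 tested genes (colour and printed value) over 16 libraries on the left and 14 on the right. Epcam and Spp1 share the deepest red square (0.874 and 0.859), Krt7 and Krt19 reach 0.629 and 0.604, and the Krt23 and Tmc5 squares are pale or blue with most others.

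The promoters of this closest pair and of Krt23, which went with neither, are shown to put the letters beside the values. They are the 250 bases before the annotated start from RefSeq on GRCm38.p6 (the counts were made on GRCm39); 6 of the 10 genes, in 8 windows, were in that table. Epcam is chr17:87635729-87635978 on the plus strand, Spp1 is the first of its windows, chr5:104434861-104435110 on the plus strand, and Krt23 is chr11:99493121-99493370 on the minus strand. Capitals mark the motifs found on either strand.
Epcam: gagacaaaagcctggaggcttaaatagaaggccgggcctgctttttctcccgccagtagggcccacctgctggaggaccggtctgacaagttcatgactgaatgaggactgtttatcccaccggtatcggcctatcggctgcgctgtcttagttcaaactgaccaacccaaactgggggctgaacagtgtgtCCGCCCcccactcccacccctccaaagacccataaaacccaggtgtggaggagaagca
Spp1: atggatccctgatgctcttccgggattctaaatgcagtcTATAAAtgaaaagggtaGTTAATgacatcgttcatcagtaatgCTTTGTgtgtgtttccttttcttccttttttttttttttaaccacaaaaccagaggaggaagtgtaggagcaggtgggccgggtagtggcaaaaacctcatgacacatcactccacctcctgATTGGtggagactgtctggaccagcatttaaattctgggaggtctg
Krt23: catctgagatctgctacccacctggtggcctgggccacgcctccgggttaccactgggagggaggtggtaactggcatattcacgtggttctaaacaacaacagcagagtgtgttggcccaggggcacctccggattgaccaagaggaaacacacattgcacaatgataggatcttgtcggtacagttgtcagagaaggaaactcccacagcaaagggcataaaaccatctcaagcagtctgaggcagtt
The Epcam window holds a GC box (GGGCGG, here on the other strand), found in 32.7% of 32851 such windows and also in those of Cftr, Cldn7 and Krt7. The Spp1 window holds TATAAA (12.4% of windows), the HNF1 motif GTTAAT (6.43%), CCAAT (33.9%, on the other strand) and the SOX core ACAAAG (16.5%, on the other strand). The Krt23 window holds none of the 8 motifs searched, which besides these were the ONECUT site ATTGAT, the TEAD core GGAATG and the grainyhead core CCGGTT. Epcam and Spp1 shared none of these motifs in these windows, and no motif in the 3 overlapped another.

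Genes outside the list that followed it were ranked by Spearman's rho with the mean centred log2 CPM of the 8 tested genes. Tmc5 and Cdh1 varied most within groups (pooled SD of log2 CPM 2.13 and 1.37) and weigh heavily in this mean. AUG_WT replicate 2 had a mean of 0.44, though its Epcam was the lowest of its group. Whether the mean follows duct content was not tested. The genes named are the highest of a search over the other tested genes, so their rho values are selected to be high. Lama5, a laminin chain of basement membranes, had rho = 0.871 (n = 16) and 0.925 without AUG_WT replicate 1. Pearson's r of Lama5 was 0.903 over 16 libraries. Itgb8, an integrin subunit that activates TGF-beta, was at 0.856 and 0.954, with r at 0.604 and 0.898. Over 16 libraries, Zfpm2 was at 0.812 (r 0.710) and Ptges, a prostaglandin E synthase, at 0.806 (r 0.778). Arhgap44 was at 0.791 (r 0.859), Itih5 at 0.788 (r 0.767) and Phldb1 at 0.782 (r 0.723). Scara3 was among the 4 genes closest to Epcam (0.874) and among the 4 closest to Spp1 (0.847), and Fads3 likewise (0.844 and 0.929); these were listed after values had been seen. The genes closest to Krt23 were others, Ireb2 at 0.924 and Retreg1 at 0.900.

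Further genes were taken from lists. Of 40 further genes of bile duct epithelium, 33 were tested and 0 were called by edgeR in any comparison. In any comparison, edgeR called at most 0.0416% of all genes. At an unadjusted edgeR p under 0.05, 2 were higher and 5 lower in AUG against AUG_WT (8.81% of all genes). All 5 lower ones had their highest level of the 16 libraries in AUG_WT replicate 1, and the count without that library is not given here. In AUG against del7, 0 were higher and 5 lower (4.28%), and in del7 against del7_WT 1 was higher and 0 lower (1.92%). In AUG against AUG_WT 14 were higher and 19 lower with a median of -0.09 (-0.04 with 14 and 19 without AUG_WT replicate 1, -0.05 with 14 and 19 without replicate 2, and -0.04 with 13 and 20 without both), in del7 against del7_WT 13 and 20 with -0.04, and in AUG against del7 9 and 24 with -0.19. Of all genes, 56.2% were lower in AUG against AUG_WT, 49.9% in del7 against del7_WT and 50.3% in AUG against del7. The most abundant of the 40 listed genes, Clu and Dsg2, are also made by hepatocytes. AUG_WT replicate 1 was the highest of its group for 14 of 33, or 42.4%, beside the 40.3% over all genes. In AUG, replicate 1 was most often highest, for 13 of 33 (39.4%, beside 26.5% of all genes). In del7_WT it was replicate 4, for 19 of 33 (57.6%, beside 25.5%), and in del7 replicate 3, for 14 of 33 (42.4%, beside 24.2%). Of 14 genes of Notch and YAP signalling, which direct duct fate, 11 were tested and 0 called, with medians of 0.05 in AUG against AUG_WT (0.02 without AUG_WT replicates 1 and 2) and 0.09 in del7 against del7_WT. Of 12 genes of ductal fluid transport, 7 were tested and 0 called, with medians of -0.16 in AUG against AUG_WT (0.11 without AUG_WT replicate 2, -0.14 without replicates 1 and 2) and 0.08 in del7 against del7_WT.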

How the data were processed

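Total RNA of 16 liver samples was depleted of ribosomal RNA and sequenced with a directional kit, per the labels' protocols. Per the submitters' processing notes, cutadapt 2.10, STAR 2.7.9a and GRCm39 were used; which annotation release went with it is not stated there. Deposited by the authors were raw counts of reads per gene. The table for the whole series, used here, holds the same values as the reverse-strand columns of the 16 libraries. GENCODE M21 gave symbols to 52081 of 55357 genes and exon lengths. Terc is not analysed here, so the genotypes were not checked against its reads.

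The members and lists were chosen with earlier results of these data known. Genes passing filterByExpr (minimum count 10; 14421) were fitted with edgeR 4.0.16 in R 4.3.3: TMM, 1 group-means model of 16 libraries, 12 residual degrees of freedom, two-sided quasi-likelihood tests, Benjamini-Hochberg threshold 0.05. DESeq2 1.42.0 and limma 3.58.1 were alternatives. Log2 CPM used a prior count of 2. Groups of 4 were checked for a single high or low library with Dixon's limit of 0.829. The code was tested on simulated data. The rule for named genes took all members, the 8 genes with the highest rho to their mean and the 2 most abundant of each list; some genes it named are not reported here. The genes closest to single members were listed afterwards.

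Replicate numbers are shared by the groups, but libraries with the same number did not all deviate together (not every correlation was over 0.1 in any comparison), so they were not treated as pairs. No sequencing batch is given in the labels. Depth was 7714058 to 14629022 gene counts. Bounds cover counting error of the del7 zeros only.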

Additional observations from a re-analysis of the deposited data

Results flagged for a closer look

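In 6 of 32 combinations of a tested gene and a group, 1 library lay so far from the rest that its gap passed Dixon's limit. These were Spp1 at 117 CPM and Cdh1 at 132 CPM in AUG_WT replicates 1 and 2, Tmc5 at 25 CPM in AUG_WT replicate 2, Krt23 at 3.75 CPM in AUG replicate 4, Krt7 at 2.50 CPM in del7_WT replicate 4, and Tmc5 at 2.17 CPM in del7_WT replicate 1. All 6 were high. The share of all tested genes passing upward was 13.6% in AUG_WT, 4.06% in AUG, 3.10% in del7_WT and 3.40% in del7. Downward it was 2.9%, 1.6%, 2.0% and 1.8%, in the same order.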

How the results depend on the processing

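No bile duct gene was called in AUG against AUG_WT or in AUG_WT against del7_WT under any alternative run. DESeq2 called 1 gene in del7 against del7_WT (Tmc5, 0.00693% of all genes) and 2 in AUG against del7 (Epcam and Tmc5, 0.347%). It called 1 for the difference of effects (Tmc5, 0.0416%). Fitting only the groups compared called 1 in AUG against del7 (Epcam, 0.227% of all genes), where 4 members passed the filter. DESeq2 gave Cdh1 no adjusted p. In AUG against AUG_WT the median log2 fold change of the 8 genes was -0.56 with limma voom and -0.33 with AUG_WT replicates 1 and 2 left out, where 2 libraries remain, and -1.31 to -0.78 leaving out 1 library at a time. Leaving out 1 library gave medians of -0.43 to 0.20 in del7 against del7_WT and -0.59 to 0.20 in AUG_WT against del7_WT, both highest without del7_WT replicate 4, and -1.02 in the latter with AUG_WT replicates 1 and 2 left out. Libraries with the same replicate number correlated at -0.16 to 0.35 (AUG with AUG_WT), 0.09 to 0.28 (del7 with del7_WT) and 0.06 to 0.28 (AUG with del7); in each of the last 2 pairs of groups, 3 of 4 were over 0.1 and 3 of 4 were best with their own number, a hint from the data and not from the design. With the number as a replicate block, 0 of the 8 genes were called in any comparison. The share of all genes called was 0.0277% in AUG against AUG_WT, 0% in del7 against del7_WT and 0.00693% in AUG_WT against del7_WT. It was 0.0624% in AUG against del7 and 0.0139% for the difference of effects. With the block, the medians of the 8 were -0.79 in AUG against AUG_WT and -0.17 in del7 against del7_WT. In AUG against AUG_WT the block took Cdh1 from -1.54 to -0.67 and Tmc5 from -1.24 to 0.33. Tmc5 had no stable value where del7 is at 0. At 3 to 38 Epcam reads and at most 9 Cldn7 or 7 Cftr reads in a library, counting limits what these genes can show.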
